A study of Homo sapiens with 6 samples.

Results

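The mitochondrial ribosomal protein genes were taken as every listed gene whose symbol is MRPL or MRPS followed by a number and at most 1 letter. The rule found 78 of the 23858 genes listed, and these are the same 78 protein-coding genes that carry such a symbol in GENCODE 29. They lie on 21 chromosomes, with 8 each on chromosomes 1, 2 and 17. The study compared NB4 cells treated with arsenic trioxide for 6 h (3 libraries) with control NB4 cells (3 libraries). NB4 cells come from a human acute promyelocytic leukaemia and carry the PML-RARA fusion, which arsenic trioxide, used to treat this leukaemia, sends to degradation. The cells of both groups were of this 1 line, grown in RPMI 1640 with fetal bovine serum. No further agent or genetic change is given in the labels for either group, and the sources used here do not state the arsenic trioxide dose. The series title ties the comparison to genes that change when the fusion protein is degraded.

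Mitochondria translate the few proteins encoded by their own DNA, all of them parts of the respiratory chain and the ATP synthase, on a ribosome of their own. Its RNAs come from mitochondrial DNA, while all of its proteins are encoded in the nucleus, made in the cytosol and imported. MRPL genes encode proteins of the large subunit, which joins amino acids, and MRPS genes those of the small subunit, which reads the mRNA. Some of the proteins descend from bacterial ribosomal proteins and others have been gained by mitochondrial ribosomes. Names and places do not always match, since MRPS30 and MRPS18A proteins sit in the large subunit and MRPS36 has been reassigned to the 2-oxoglutarate dehydrogenase complex.

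Levels were deposited as RPKM, which are reads scaled to kilobases of exon and to the size of the library, so that levels can be compared between genes. Recovered library totals were 21185966 to 22300256 reads after arsenic trioxide and 19361332 to 22609019 in controls. In a gene with 1 kb of exon, 3 reads were worth 0.133 to 0.155 RPKM, a limit for counting error only. Over the 16803 tested genes the groups lay apart on the first principal component (55.3% of the variance), and the second (15.2%) set arsenic trioxide replicate 3 and control replicate 1 apart from the other libraries. The sources used here do not say if replicates came from separate cultures, so the p-values reflect the spread of these libraries alone. Of 6 promyelocyte markers 5 were listed, with summed levels of 666 to 1006 RPKM after arsenic trioxide and 998 to 1389 RPKM in controls. MPO, the myeloperoxidase of primary granules, averaged 677 ± 123 RPKM in arsenic trioxide libraries and 940 ± 132 RPKM in controls (SD, n = 3 each), and ELANE was not in the table. AZU1, another granule protein gene, fell (log2 fold change -0.98, adjusted p = 0.00258). The other 4 listed promyelocyte markers did not pass the test. Their adjusted p-values were 0.0716 for MPO, 0.0577 for CD33, 0.228 for PRTN3 and 0.332 for CTSG. Of 18 markers of other cell types 7 were listed, and none of fibroblasts. CD3D, EPCAM and PECAM1, of T, epithelial and endothelial cells, were near 3 to 7 RPKM in every library and did not pass the test. The part of these markers in the results below was not tested.

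Transcripts of the 78 genes made up 0.457%, 0.457% and 0.438% of the reads in arsenic trioxide libraries, against 0.478%, 0.481% and 0.486% in controls. Their summed level per length was 1771, 1766 and 1713 RPKM after arsenic trioxide and 1862, 1842 and 1882 RPKM in controls. On both measures each arsenic trioxide library lay below each control library. In bulk RNA, fewer cells with these transcripts and less of them per cell cannot be told apart. Both measures are relative to the whole library, so more RNA of other genes cannot be told apart from these either. Within the tested genes of the set, the first principal component held 76% of the variance, with scores of 1.28, 1.22 and 1.80 for arsenic trioxide libraries and -1.46, -1.44 and -1.40 for controls. Arsenic trioxide replicate 3, one of the libraries set apart over all genes, was also the farthest from the controls here.

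Reads of all 78 genes were found in all 6 libraries. The median level was 16.6 RPKM, against 5.63 RPKM for all listed protein-coding genes. MRPS35, which encodes a small-subunit protein particular to mitochondria, had the highest level. It stood at 139, 146 and 132 RPKM in arsenic trioxide libraries and at 146, 137 and 133 RPKM in controls, and the groups overlapped. MRPL18, MRPL3 and MRPL37 followed, and the first 2 of these 3 changed, as given below. MRPL37, a large-subunit protein gene, averaged 74.4 ± 5.32 RPKM after arsenic trioxide and 73.9 ± 1.69 RPKM in controls (SD, n = 3 each), with overlapping groups.

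The lowest levels were those of MRPS24, MRPL38, MRPS28 and MRPL46. MRPS24, a small-subunit protein gene, was at 0.103, 0.163 and 0.209 RPKM after arsenic trioxide and at 0.530, 0.514 and 0.271 RPKM in controls. The groups did not overlap, but the gene fell under the 1 RPKM required for testing, so 77 of the 78 genes were tested. In the authors' deposited table MRPS24 has a log2 fold change of -1.49 with an adjusted p of 0.0407. MRPL38 averaged 1.11 ± 0.130 RPKM after arsenic trioxide and 1.34 ± 0.127 RPKM in controls, MRPL46 averaged 2.22 ± 0.372 and 2.46 ± 0.413 RPKM, and MRPS28 averaged 1.91 ± 0.158 and 1.73 ± 0.142 RPKM in the same order (SD, n = 3 each). The groups of all 3 overlapped. Of the 10 lowest genes, 9 share exon bases with another annotated gene, with a median of 31.4% of their exon length, while 4 of the 10 highest do so. The libraries do not mark strand and the sources used here do not state the counting mode, so the level of a gene with shared exon bases is uncertain. Over the 78 genes the shared percentage and the log2 level had Spearman's rho of -0.36 and Pearson's r of -0.46, a description across genes, which are not independent replicates.

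Of the 77 tested genes, 20 fell after arsenic trioxide (26.0%) and 7 rose (9.09%), while 50 did not pass the test, limma in trend mode on log2 of RPKM + 1 with a Benjamini-Hochberg adjusted p under 0.05. Over all 16803 tested genes 13.4% were called lower and 12% higher, and over the 10159 protein-coding ones 16.7% and 14.3%. The median standard error was 0.0859 over tested members, against 0.131 over all tested genes. The part of this smaller error in the shares called and in the sizes given below was not tested. The median log2 fold change of the set was -0.12, against -0.0033 over all tested genes and -0.013 over protein-coding ones. The groups did not overlap in 32 genes that were lower and 13 that were higher after arsenic trioxide, beside 22.6% and 21.9% of all tested genes. All 27 called genes were among them. The changes were small, with a median size of 0.35 on the log2 scale among the called genes of the set and 0.56 among all called genes, and at least 1.5-fold in 6 of the falls and 1 of the rises. The counts changed with scaling and when any 1 library was left out. They were 21 lower and 2 higher with TMM scaling and 25 lower and 3 higher with limma-voom on recovered reads. Leaving out control replicate 1, 2 or 3 gave 15, 11 or 10 lower and 4, 2 or 2 higher, and leaving out arsenic trioxide replicate 1, 2 or 3 gave 15, 14 or 15 lower and 1, 3 or 4 higher. Shares over all genes under these alternatives are not given here, so these counts cannot be set beside the 13.4% and 12% above. At an adjusted p under 0.05, the authors' deposited table has 22 of the 77 tested members lower and 3 higher, and the untested MRPS24 also lower, where 16.0% and 13.3% of the tested genes are. Of the 27 genes called here, 22 are called there with the same sign.

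**Figure D1:**
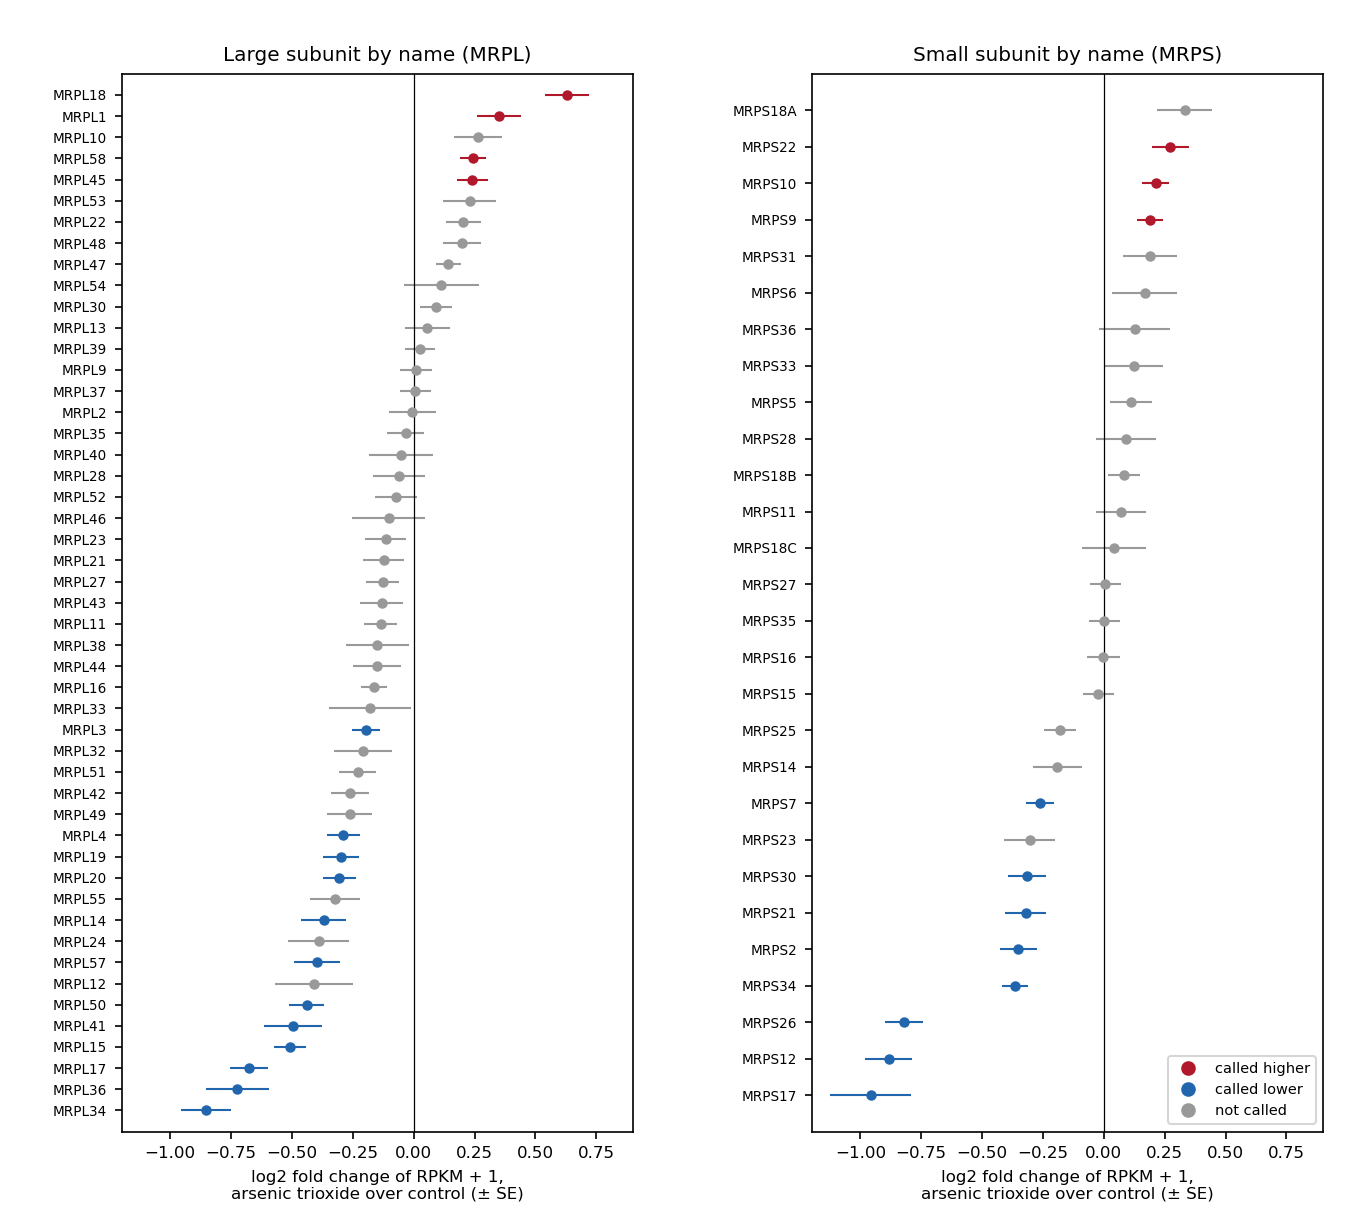
Log2 fold change of RPKM + 1 (x axis, arsenic trioxide over control) of the 77 tested genes, ordered by size within MRPL names (left) and MRPS names (right). Points are limma estimates and bars their standard errors, with the 20 called lower in blue, the 7 called higher in red and the 50 not called in grey. MRPS17, MRPS12, MRPL34 and MRPS26 lie lowest and MRPL18 highest.

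The 12 largest called falls came from both subunits. MRPL12 and MRPL24 were lower by more than some of these, at -0.41 and -0.39, but were not called (adjusted p = 0.103 and 0.0606). MRPS17, a small-subunit protein with a bacterial homologue (chromosome 7, 55951819 to 55956501, GRCh38), was at 3.14, 2.32 and 2.07 RPKM after arsenic trioxide and at 6.74, 5.91 and 4.75 RPKM in controls. The groups were well apart, the mean was 2.31-fold lower and the log2 fold change was -0.96 ± 0.17 (SE, adjusted p = 0.00800). MRPS17 shares 27.0% of its exon bases with other genes on the same strand, among them NIPSNAP2, which had a log2 fold change of -0.12 (adjusted p = 0.188). MRPS12, the counterpart of the bacterial protein at the decoding centre (chromosome 19, 38930548 to 38933162), was at 6.73, 6.38 and 6.18 RPKM after arsenic trioxide and at 14.4, 11.9 and 12 RPKM in controls. It was 1.98-fold lower, with a log2 fold change of -0.88 ± 0.09 (SE, adjusted p = 0.00159), and each treated library was below each control. MRPS12 shares 16.3% of its exon bases with SARS2 on the opposite strand, which had a log2 fold change of 0.25 (adjusted p = 0.199).

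MRPL34, a short large-subunit protein with a bacterial homologue (chromosome 19, 17292609 to 17306843), had 6.36, 7.45 and 7.85 RPKM in arsenic trioxide libraries and 14.7, 12.6 and 14.2 RPKM in controls. This 1.92-fold fall gave a log2 fold change of -0.85 ± 0.10 (SE, adjusted p = 0.00221). Of its exon bases 13.2% are shared with ABHD8 on the opposite strand, which was itself lower, with a log2 fold change of -0.91 (adjusted p = 0.00574), so reads from that stretch cannot be told apart. MRPS26, a small-subunit protein particular to mitochondria (chromosome 20, 3045945 to 3048254), shares no exon base. It had 22.6, 26.0 and 24.2 RPKM after arsenic trioxide and 47.1, 43.3 and 40.5 RPKM in controls. With a 1.80-fold fall and a log2 fold change of -0.82 ± 0.08 (SE), it had the smallest adjusted p of the set, 0.00107.

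MRPL36 and MRPL17, both large-subunit proteins with bacterial homologues, were the other 2 genes at least 1.5-fold lower. MRPL36 (chromosome 5, 1798386 to 1801366) had 17.4, 18.9 and 13.9 RPKM after arsenic trioxide and 24.9, 27.8 and 31.9 RPKM in controls, a log2 fold change of -0.72 ± 0.13 (SE, adjusted p = 0.00876). MRPL17 (chromosome 11, 6680782 to 6683401) had 11.6, 13.5 and 11.6 RPKM after arsenic trioxide and 19.9, 19.7 and 20.7 RPKM in controls, a log2 fold change of -0.68 ± 0.08 (SE, adjusted p = 0.00194). In both genes the groups lay apart. MRPL15, one of the 5 most abundant members and homologous to a bacterial large-subunit protein, was at 50.8, 47.7 and 44.9 RPKM after arsenic trioxide and at 72.4, 66.2 and 66.5 RPKM in controls. Its fall of 1.43-fold had an adjusted p of 0.00296. MRPL50, a large-subunit protein particular to mitochondria, averaged 9.15 ± 0.234 RPKM after arsenic trioxide and 12.8 ± 0.699 RPKM in controls, and MRPS34, its like in the small subunit, averaged 37.9 ± 1.08 and 49.2 ± 1.87 RPKM in the same order (SD, n = 3 each). Their adjusted p-values were 0.00656 and 0.00442. The 9 genes from MRPS17 to MRPS34 described so far stayed called lower under each alternative in which they were tested, MRPS17 being too low for the filter at 5 RPKM.

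**Figure D2:**
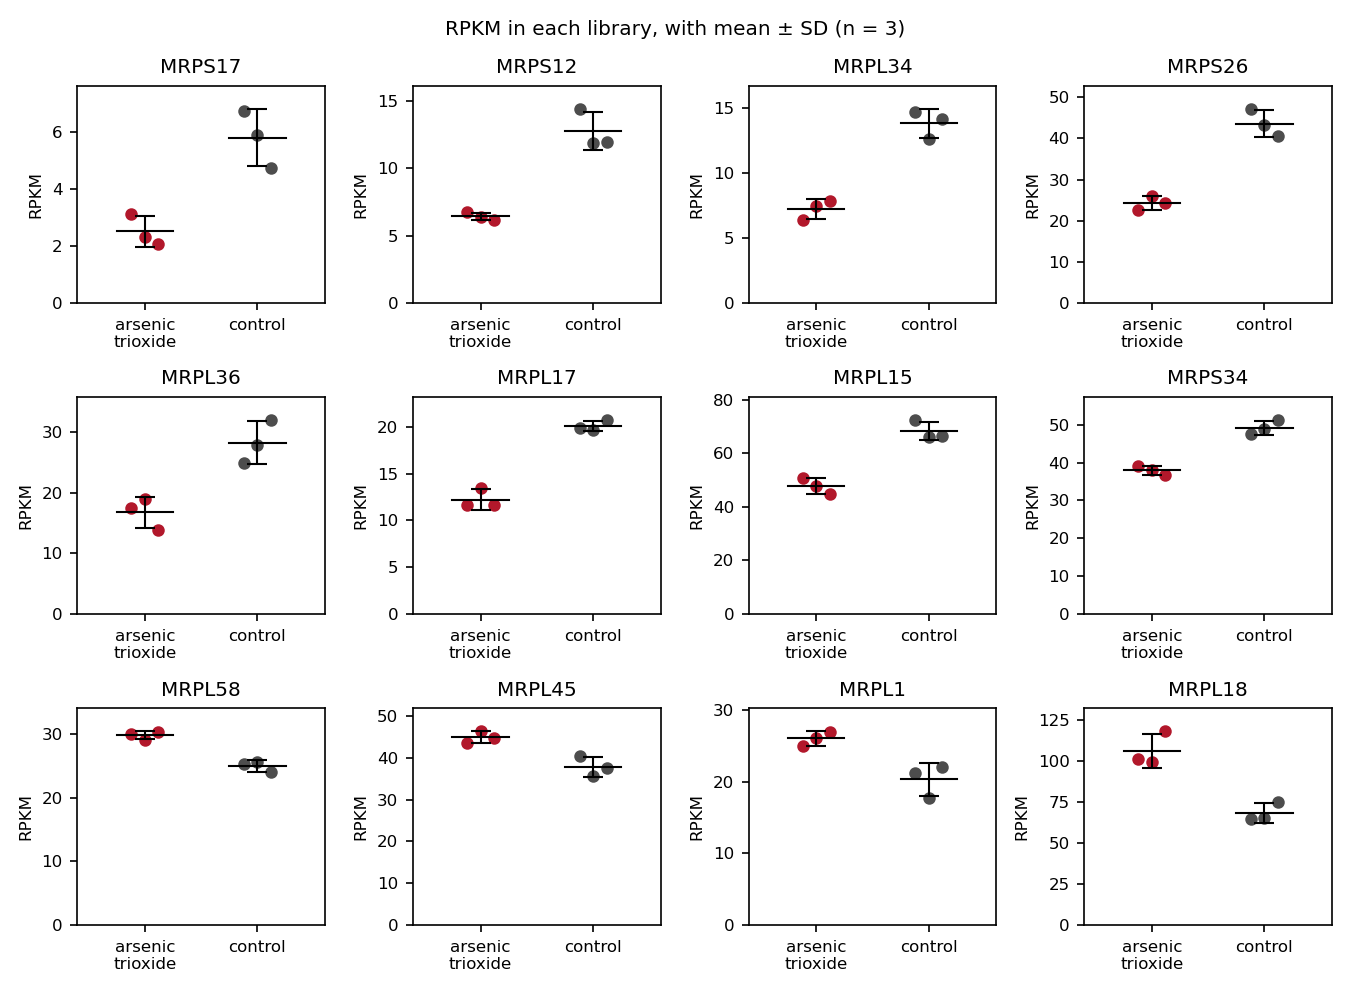
RPKM (y axis, from 0) in each of the 3 arsenic trioxide and 3 control libraries for 12 genes, with the mean and SD as a line and bars. In the 8 genes of the first 2 rows each treated library lies below each control, for example 22.6 to 26.0 against 40.5 to 47.1 RPKM for MRPS26, and in the 4 genes of the last row each lies above.

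The remaining 3 of the 12 were all large-subunit protein genes whose calls were lost when any 1 of several libraries was left out. MRPL41, particular to mitochondria, averaged 14.9 ± 1.96 RPKM after arsenic trioxide and 21.4 ± 2.47 RPKM in controls (SD, n = 3 each), with a log2 fold change of -0.50 (adjusted p = 0.0228). Without control replicate 2 or 3 or arsenic trioxide replicate 2 or 3 its adjusted p was 0.0601 to 0.0722. MRPL57, also particular to mitochondria, averaged 13.1 ± 0.968 and 17.6 ± 1.89 RPKM in arsenic trioxide and control libraries (SD, n = 3 each, log2 fold change -0.40, adjusted p = 0.0244), and without control replicate 2 or 3 or arsenic trioxide replicate 1 or 2 its adjusted p was 0.0608 to 0.0750. MRPL14, at the face where the subunits meet, averaged 33.7 ± 3.46 and 43.8 ± 3.63 RPKM in the same order (log2 fold change -0.37, adjusted p = 0.0262), and 0.0561 to 0.0782 was its range without control replicate 1 or 2 or arsenic trioxide replicate 2 or 3.

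The other 8 genes called lower had log2 fold changes of -0.35 for MRPS2 to -0.20 for MRPL3. MRPL4, whose protein lines the exit tunnel, averaged 45.8 ± 3.66 RPKM after arsenic trioxide and 56.1 ± 1.33 RPKM in controls (SD, n = 3 each, adjusted p = 0.0219). MRPL3, the third gene by level, averaged 74.1 ± 3.67 and 85.0 ± 2.33 RPKM in the same order (adjusted p = 0.0438). MRPS30 was at 17.6, 19.8 and 16.3 RPKM after arsenic trioxide, against 22.5, 22.2 and 22.6 RPKM in controls (log2 fold change -0.31, adjusted p = 0.0267). All 8 calls were lost without at least 1 library. MRPL3 lost it without any of the 6 (adjusted p 0.0569 to 0.111), and MRPS30 without any but arsenic trioxide replicate 2 (0.0579 to 0.0782). MRPS7 lost it without any control or arsenic trioxide replicate 2 (0.0506 to 0.0582), and MRPL4 without control replicate 2 or 3 or arsenic trioxide replicate 2 (0.0614 to 0.0727). MRPL19 and MRPS21 lost it without control replicate 2 or 3 or arsenic trioxide replicate 1 or 3 (0.0531 to 0.0853 and 0.0538 to 0.0956). For MRPL20 it was lost without control replicate 3 or arsenic trioxide replicate 2 (0.0708 and 0.0569), and for MRPS2 without control replicate 1 or 3 (0.0502 and 0.0604).

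MRPL18 had the largest rise. It encodes a protein of the large subunit's central protuberance, and in human cells the gene is known also to give a form that stays in the cytosol and joins cytosolic ribosomes during heat shock. MRPL18 (chromosome 6, 159789812 to 159798436) was at 101, 99.2 and 118 RPKM in arsenic trioxide libraries and at 64.5, 65.1 and 75.0 RPKM in controls. The groups were clearly apart, the mean was 1.56 times the control mean, and the log2 fold change was 0.63 ± 0.09 (SE, adjusted p = 0.00425). It was the second gene by level and the only one of the 7 rises that stayed called under every alternative, with adjusted p-values of 0.000211 to 0.0197. These gene-level values do not tell the transcripts of the mitochondrial and the cytosolic form apart.

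The other 6 rises were smaller and came from both subunits. MRPL1, of the stalk where spent tRNA leaves, was at 25, 26.2 and 27.0 RPKM after arsenic trioxide and at 21.2, 17.7 and 22.1 RPKM in controls (log2 fold change 0.35 ± 0.09, SE, adjusted p = 0.0305). MRPL58, a peptidyl-tRNA hydrolase that frees stalled ribosomes and is also built into the large subunit, was at 30.1, 29.1 and 30.3 RPKM, against 25.4, 25.7 and 24.0 RPKM in controls (log2 fold change 0.24 ± 0.05, SE, adjusted p = 0.0185). MRPL45, which holds the ribosome to the inner membrane, was at 43.6, 46.4 and 44.9 RPKM, against 40.4, 35.6 and 37.7 RPKM in controls (log2 fold change 0.24 ± 0.06, SE, adjusted p = 0.0302). In these 3 genes the groups did not overlap. The small-subunit genes MRPS22, MRPS10 and MRPS9 had log2 fold changes of 0.27, 0.21 and 0.19 with adjusted p-values of 0.0376, 0.0305 and 0.0362. None of the 6 calls held without every library. MRPL1 and MRPL45 lost it in 5 of 6 cases, all but control replicate 3 for MRPL1 (0.0534 to 0.0807) and all but control replicate 1 for MRPL45 (0.0582 to 0.0946). MRPL58 lost it without control replicate 3 or arsenic trioxide replicate 1 (0.0695 and 0.0582), MRPS10 without control replicate 2 or 3 or arsenic trioxide replicate 1 or 2 (0.0877 to 0.102), MRPS22 without any but arsenic trioxide replicate 3 (0.0736 to 0.1), and MRPS9 without any of the 6 (0.0548 to 0.114). With TMM scaling MRPL1 (0.0508), MRPL45 (0.0682), MRPS22 (0.0573), MRPS10 (0.0824) and MRPS9 (0.0977) were not called, and with limma-voom MRPL58 (0.111), MRPL45 (0.0797), MRPS10 (0.108) and MRPS9 (0.190) were not.

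Counted by place, 13 of 51 tested large-subunit genes fell and 4 rose, with a median log2 fold change of -0.13. Of 25 small-subunit genes 7 fell and 3 rose, with a median of 0.0018, so the small subunit held falls of the largest size beside many genes near 0. Among genes with a bacterial homologue 14 of 45 fell and 4 rose (median -0.13), and among those particular to mitochondria 6 of 31 fell and 3 rose (median -0.072). These 2 classes follow the unified naming of ribosomal proteins and not a comparison of sequences. By that naming MRPS18A and MRPS18B count as particular to mitochondria, although they are relatives of a bacterial protein. The differences between these classes were not tested.

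MRPL12, MRPL10 and MRPL11, genes of the stalk that recruits translation factors and of its base, did not pass the test. MRPL12, the stalk protein also known to bind mitochondrial RNA polymerase, was at 3.18, 4.13 and 2.52 RPKM after arsenic trioxide and at 4.43, 5.12 and 4.35 RPKM in controls (log2 fold change -0.41 ± 0.16, SE, adjusted p = 0.103). Its groups did not overlap, and 68.2% of its exon bases are shared with a read-through gene on the same strand, the highest share of the set. MRPL10, which carries MRPL12 in the stalk, averaged 18.6 ± 2.13 RPKM after arsenic trioxide and 15.3 ± 1.16 RPKM in controls (adjusted p = 0.0880), and MRPL11, at the stalk base, averaged 20.7 ± 1.59 and 22.8 ± 0.155 RPKM in the same order (SD, n = 3 each, adjusted p = 0.192). The log2 fold changes of MRPL10 and MRPL11 were 0.26 and -0.13, and neither gene's groups overlapped.

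The 3 MRPS18 paralogues, human relatives of 1 bacterial small-subunit protein, had different values. MRPS18A, whose protein sits in the large subunit, was at 15.6, 12.4 and 17.0 RPKM after arsenic trioxide and at 11.3, 11.7 and 11.9 RPKM in controls. It had a log2 fold change of 0.33 ± 0.11 (SE, adjusted p = 0.0733), with groups apart, and was called only with upper quartile scaling (0.0489) and without arsenic trioxide replicate 2 (0.0165). MRPS18B averaged 48.0 ± 2.82 RPKM in arsenic trioxide libraries and 45.2 ± 2.33 RPKM in controls, and MRPS18C 2.57 ± 0.251 and 2.48 ± 0.339 RPKM in the same order (SD, n = 3 each), both with overlapping groups. MRPS27, an RNA-binding small-subunit protein, averaged 34.1 ± 1.71 and 34.0 ± 1.57 RPKM in arsenic trioxide and control libraries, and MRPS36, the reassigned member, 8.35 ± 1.51 and 7.53 ± 0.997 RPKM (SD, n = 3 each). Their groups overlapped as well, with adjusted p-values of 0.954 and 0.561. In all, 12 genes of the set had an adjusted p of 0.05 to 0.1, of which 8 were lower and 4 higher. The share of all tested genes in that range is not given here, so these counts are no result about the set.

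Genes that fell covered less of the chromosome than genes that rose, a difference given here without a test. The median span from first to last exon was 5053 bases for the 20 genes called lower, 26196 bases for the 7 called higher and 12979 bases for the 50 not called. Of 34 genes with a span under 10000 bases, 12 fell and 2 rose, with a median log2 fold change of -0.20. Of the 43 with longer spans 8 fell and 5 rose, and the median was 0.0058. Span and log2 fold change had Spearman's rho of 0.46 and Pearson's r of 0.44 over the 77 genes, a description across genes. Among protein-coding tested genes as a whole, 23.5% of the 1920 with spans under 10000 bases were called lower and 8.85% higher, against 15.1% and 15.6% of the 8239 longer ones. The correlation over the 10159 protein-coding genes was weaker, with rho of 0.19 and r of 0.15. The log2 of exon length (rho 0.09) and of mean level (rho -0.01) showed little relation to the fold change.

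**Figure D3:**
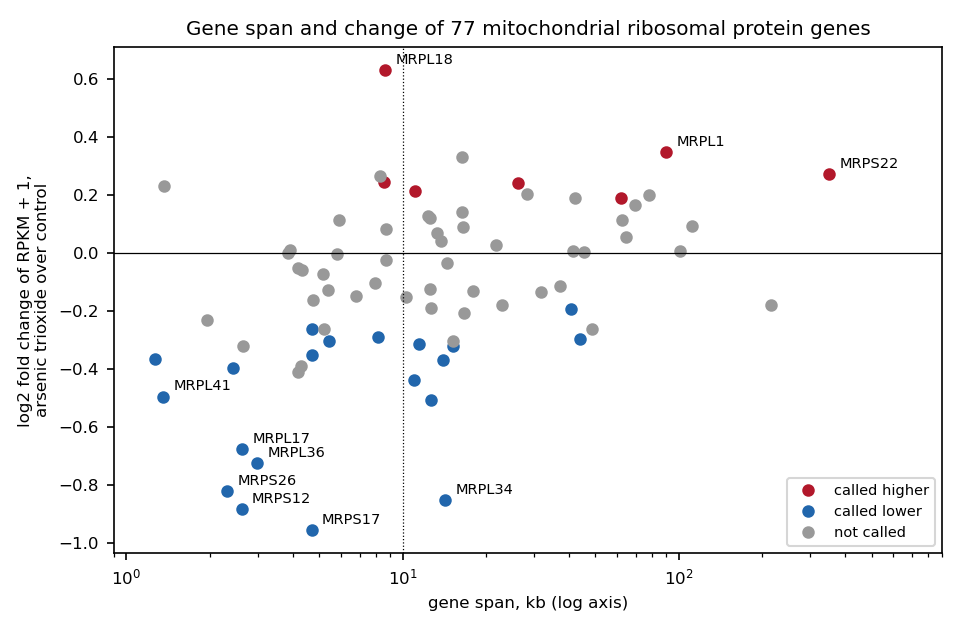
Log2 fold change of RPKM + 1 (y axis, arsenic trioxide over control) against gene span in kilobases (x axis, log scale) for the 77 tested genes, with calls in colour and the dotted line at 10 kb. MRPS12, MRPS26, MRPL17, MRPL36, MRPS17 and MRPL41 lie at the lower left, MRPL34 and MRPL18 stand apart from the trend, and MRPL1 and MRPS22 lie at the upper right.

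Promoters are shown for MRPS12, MRPS26 and MRPL17, which fell, and for MRPL18, which rose, as examples chosen with their values known from the 9 lower and 1 higher genes that kept their calls under each alternative in which they were tested. Each runs from 250 bases before to 50 bases after the RefSeq start site (GRCh38.p14), and capitals mark the matches to the motifs named next.
MRPS12 chr19:38930694-38930993, plus strand: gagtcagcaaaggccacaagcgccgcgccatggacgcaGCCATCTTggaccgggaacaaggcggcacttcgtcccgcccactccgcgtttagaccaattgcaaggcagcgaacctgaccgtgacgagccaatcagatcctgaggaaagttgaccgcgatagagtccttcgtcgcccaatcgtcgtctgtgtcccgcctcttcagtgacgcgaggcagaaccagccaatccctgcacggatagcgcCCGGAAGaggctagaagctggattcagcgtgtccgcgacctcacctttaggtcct
MRPS26 chr20:3045802-3046101, plus strand: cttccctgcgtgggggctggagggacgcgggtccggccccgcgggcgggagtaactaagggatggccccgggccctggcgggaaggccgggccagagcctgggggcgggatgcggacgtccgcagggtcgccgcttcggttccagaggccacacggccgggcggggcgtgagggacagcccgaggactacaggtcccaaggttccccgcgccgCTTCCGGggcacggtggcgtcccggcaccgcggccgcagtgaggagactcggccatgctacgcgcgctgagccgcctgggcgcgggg
MRPL17 chr11:6683291-6683590, minus strand: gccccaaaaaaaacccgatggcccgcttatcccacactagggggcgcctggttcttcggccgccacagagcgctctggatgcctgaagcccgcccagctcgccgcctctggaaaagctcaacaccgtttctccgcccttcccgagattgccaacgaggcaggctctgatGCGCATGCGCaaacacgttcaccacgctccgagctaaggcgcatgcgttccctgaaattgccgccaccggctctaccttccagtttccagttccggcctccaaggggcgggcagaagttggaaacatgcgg
MRPL18 chr6:159789562-159789861, plus strand: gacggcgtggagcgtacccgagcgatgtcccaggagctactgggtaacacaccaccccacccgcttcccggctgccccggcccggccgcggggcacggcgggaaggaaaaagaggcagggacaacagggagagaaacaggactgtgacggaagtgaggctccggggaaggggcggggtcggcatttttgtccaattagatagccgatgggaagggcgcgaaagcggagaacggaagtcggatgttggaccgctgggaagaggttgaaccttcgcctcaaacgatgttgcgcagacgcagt
The motifs were searched on both strands in the 69 promoters of the set that matched the RefSeq table by symbol and in all 35116 promoters of that table. Those 35116 were not limited to protein-coding genes or to genes tested here, and shares over such genes alone are not given. CCGGAAG, bound by ETS factors, was in 42.0% of the set's promoters (29) and in 10.3% of all promoters, and AAGATGGC, bound by YY1, in 29% (20) and 2.89%. GCGC, any 2 bases and GCGC, the core bound by nuclear respiratory factor 1, a regulator of mitochondrial genes, was in 13% of the set and in 8.32% of all. CACGTG, the E-box bound by MYC and USF proteins, was in 8.70% and 7.26%. In MRPS12 the capitals are YY1 and ETS letters, in MRPS26 ETS letters and in MRPL17 the nuclear respiratory factor 1 core, and the MRPL18 window holds none of these. MRPL36, another of the 9 and not shown, matched the E-box, YY1 and nuclear respiratory factor 1 letters. By call, the ETS letters were in 6 of 19 promoters of genes that fell, 3 of 7 that rose and 20 of 42 not called. The YY1 letters were in 6, 2 and 11 of the same promoters. TTCNNGAA, a pair of inverted heat shock units added after the values were seen, was in 0 of the 19, 1 of the 7 (MRPL1) and 7 of the 42, beside 7.74% of all promoters. A match is a description of letters and not a bound site.

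Many of these genes start beside a gene read in the other direction. Within 1000 bases, 25 of the 77 tested genes (32.5%) have a protein-coding head-to-head partner that was tested too, against 16.3% of protein-coding tested genes. This makes 24 pairs, since MRPL46 and MRPS11 are partners of each other. Both genes were called in 2 pairs, the member alone in 6, the partner alone in 3 and neither in 13. In MRPL18 and TCP1, a subunit gene of the cytosolic chaperonin whose start lies 63 bases away, the log2 fold changes were 0.63 and 0.17, and TCP1, at 131 ± 3.75 RPKM after arsenic trioxide and 116 ± 3.52 RPKM in controls (SD, n = 3 each), had an adjusted p of 0.0538. MRPS12 and SARS2, the mitochondrial seryl-tRNA synthetase gene, had -0.88 and 0.25, with an adjusted p of 0.199 for SARS2. These 2 genes also share exon bases. SARS2 was low, at 1.25 ± 0.146 RPKM after arsenic trioxide and 0.892 ± 0.0503 RPKM in controls (SD, n = 3 each). MRPL36 and NDUFS6, a complex I subunit gene, had -0.72 and -0.18, with an adjusted p of 0.173 for NDUFS6.

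In the pairs with both genes called, MRPL57 and SKA3, a spindle and kinetochore gene, were both lower (-0.40 and -0.39), while MRPL50 was lower and ZNF189, a zinc finger gene, higher (-0.44 and 0.30). The SKA3 call (adjusted p = 0.0429) was lost without control replicate 2 or 3 or arsenic trioxide replicate 1 or 3, at 0.0869 to 0.119, and the ZNF189 call (0.0280) without any library but arsenic trioxide replicate 3, at 0.0638 to 0.0841. The log2 fold changes had one sign in 11 of 24 pairs, with Pearson's r of 0.11 across pairs. MRPL43 and C10orf2, the older symbol of TWNK, start 148 bases apart and also share exon bases. C10orf2, the helicase of mitochondrial DNA, fell to 15.2 ± 1.71 RPKM after arsenic trioxide, against 33.2 ± 2.27 RPKM in controls (SD, n = 3 each, adjusted p = 0.000857), while MRPL43 averaged 6.99 ± 0.355 and 7.75 ± 0.544 RPKM in the same order (adjusted p = 0.314).

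**Figure D4:**
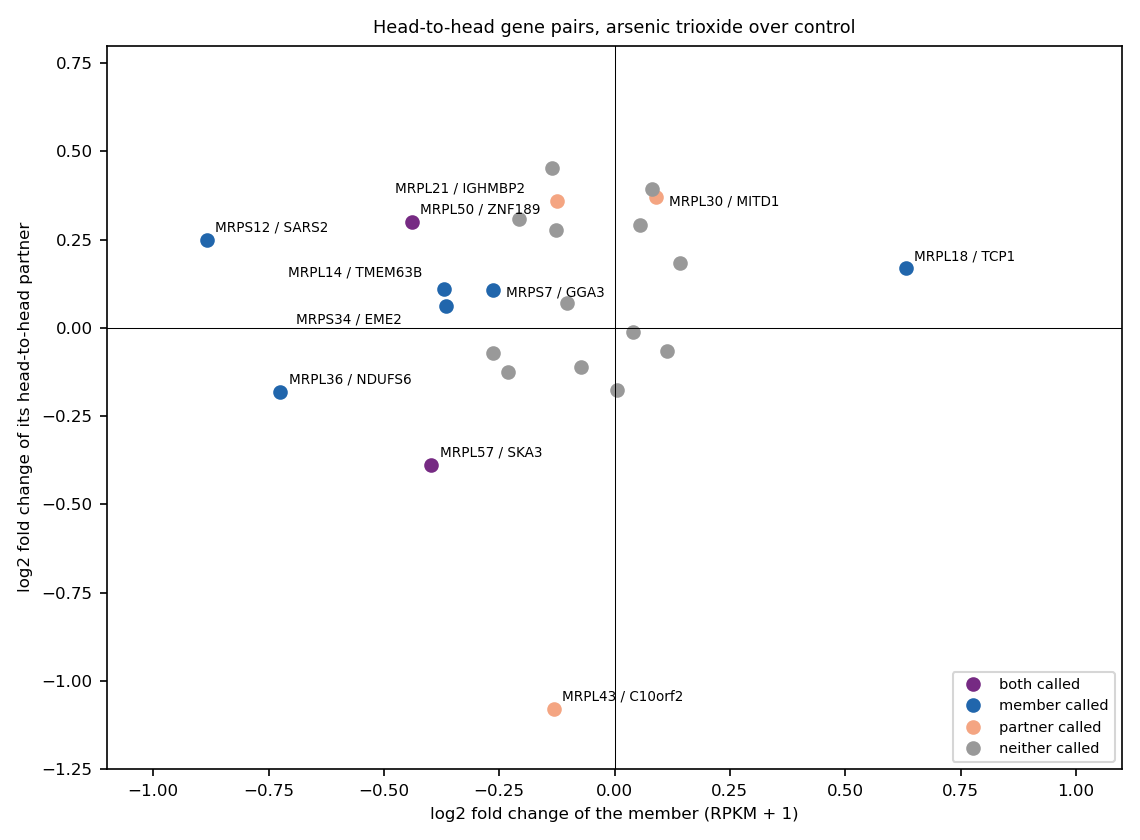
Log2 fold change of RPKM + 1, arsenic trioxide over control, of each member (x axis) and of its head-to-head partner (y axis) for 24 gene pairs, coloured by which of the 2 genes was called. MRPL18 lies far right with TCP1 near 0.17, and MRPS12 far left with SARS2 near 0.25.

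Other proteins of the same ribosome carry names of their own. DAP3, the GTP-binding protein of the small subunit, rose to 47.3, 48.0 and 44.6 RPKM after arsenic trioxide, against 30.2, 31.4 and 34.6 RPKM in controls (log2 fold change 0.53 ± 0.07, SE, adjusted p = 0.00270). CHCHD1 and PTCD3, also of the small subunit, fell. CHCHD1 had 6.38, 6.75 and 7 RPKM after arsenic trioxide and 9.81, 11 and 10.3 RPKM in controls (-0.56, adjusted p = 0.00436), and PTCD3, a pentatricopeptide protein at the mRNA entry, averaged 20 ± 0.608 and 25.4 ± 0.163 RPKM in the same order (SD, n = 3 each, -0.33, adjusted p = 0.00604). The groups of all 3 were apart. AURKAIP1 and GADD45GIP1 had log2 fold changes of -0.17 and -0.27 with adjusted p-values of 0.0947 and 0.127.

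Of 26 tested genes for assembly of this ribosome and modification of its RNA, 9 fell and 0 rose in limma, with a median log2 fold change of -0.20. The falls were 34.6% of the list, beside 16.7% of protein-coding tested genes called lower and 14.3% called higher. At an unadjusted p under 0.05 the counts of the list were 11 lower and 0 higher, and limma-voom called 11 lower and 0 higher. Over all 16803 tested genes 3412 were lower and 3174 higher at that unadjusted threshold. Counts over all genes with limma-voom are not given here, so those of this and the following lists have no such share beside them. MRM1, a methyltransferase of the large ribosomal RNA, averaged 4.11 ± 0.692 RPKM after arsenic trioxide and 11.1 ± 2.14 RPKM in controls (SD, n = 3 each, log2 fold change -1.23, adjusted p = 0.00287). MALSU1, which binds MRPL14 on the immature large subunit, averaged 9 ± 0.198 and 13.3 ± 0.390 RPKM in the same order (-0.52, adjusted p = 0.00287). The RNA helicase DDX28 and the large-subunit assembly factor MTERF3 were also lower, both at -0.66 (adjusted p = 0.00411 and 0.00922). Counts without 1 library were 7 to 9 lower and 0 higher.

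Among 15 translation factors 3 fell and 1 rose (median -0.063). GFM2, which with the recycling factor splits the ribosome after termination, averaged 20 ± 0.751 RPKM after arsenic trioxide and 13.5 ± 0.685 RPKM in controls (SD, n = 3 each, log2 fold change 0.53, adjusted p = 0.00255). The elongation factor gene TSFM had -0.51 (adjusted p = 0.00902). MTFMT, which formylates the initiator tRNA, had -0.38 (0.0385) and the recycling factor gene MRRF -0.24 (0.0440). Without control replicate 1, 2 or 3 or arsenic trioxide replicate 1 or 3, neither of the last 2 was called, with adjusted p-values of 0.0589 to 0.121 for MTFMT, and MRRF was not called without arsenic trioxide replicate 2 either (0.0938).

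Of 10 genes for transcription and upkeep of mitochondrial DNA, 7 fell and 0 rose in limma (median -0.29). The falls were 70.0% of the list, beside 16.7% of protein-coding tested genes called lower and 14.3% called higher. At an unadjusted p under 0.05 or in limma-voom, 8 fell and 0 rose. The transcription initiation factor gene TFB2M averaged 10.4 ± 1.1 RPKM after arsenic trioxide and 20.4 ± 1.27 RPKM in controls (SD, n = 3 each, log2 fold change -0.91, adjusted p = 0.00135), and POLRMT, the RNA polymerase, 6.62 ± 1.15 and 12.2 ± 1.38 RPKM in the same order (-0.80, adjusted p = 0.00705). POLG2, an accessory subunit of the DNA polymerase, had -0.92 (adjusted p = 0.00256). Without control replicate 2 or 3 the count of genes that fell was 4. The 13 mRNAs encoded by mitochondrial DNA gave 0 calls in either direction in limma, in limma-voom and at an unadjusted p under 0.05, with a median of 0.038, and leaving out control replicate 1 or arsenic trioxide replicate 2 turned that median to -0.099 or -0.047. Of 81 cytosolic ribosomal protein genes 3 fell (3.70%) and 0 rose in limma (median -0.027), beside the same 16.7% and 14.3%. Limma-voom called 8 lower and 0 higher. At an unadjusted p under 0.05, 11 of the 81 were lower and 2 higher, beside 3412 and 3174 of all 16803 tested genes.

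**Figure D5:**
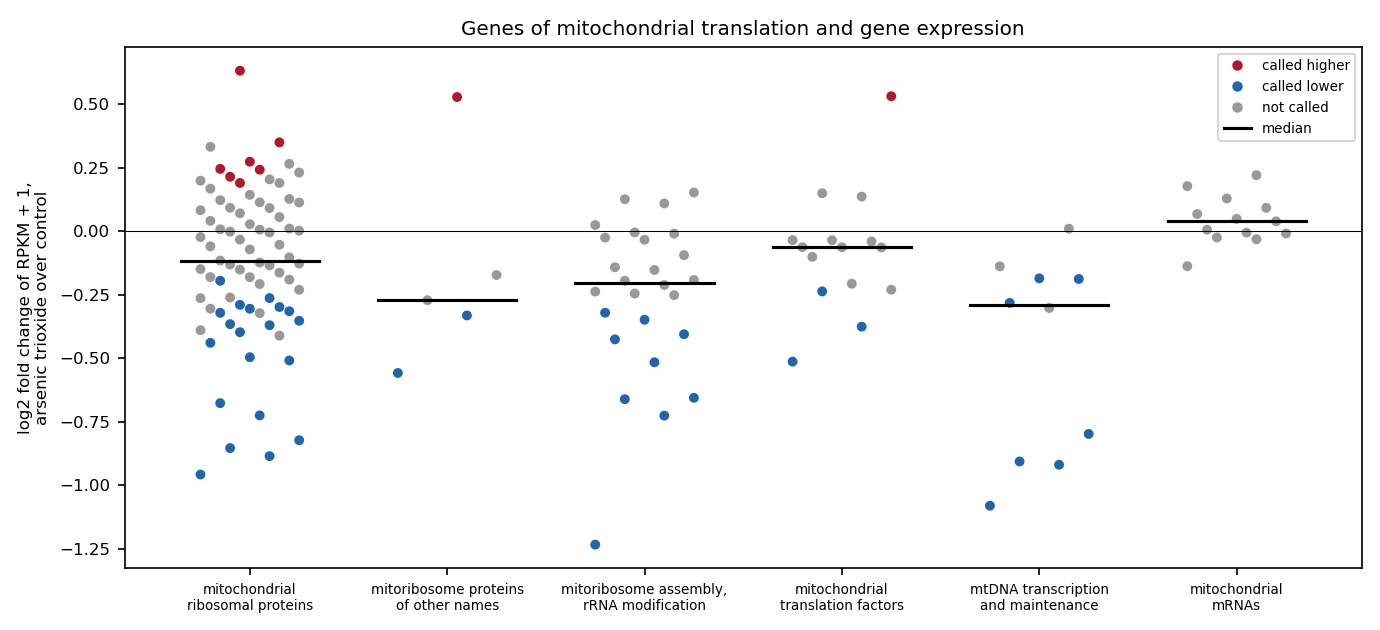
Log2 fold change of RPKM + 1 (y axis, arsenic trioxide over control) of the tested genes of 6 lists, each point a gene coloured by its call and each line the list's median. The mitochondrial ribosomal protein genes reach from -0.96 for MRPS17 to 0.63 for MRPL18, and the 13 mitochondrial mRNAs are all uncalled.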

How the data were processed

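RNA was depleted of ribosomal RNA and sequenced from NB4 cells, with libraries made by a kit that does not mark strand, per the labels' protocols. The authors deposited RPKM of 23858 genes, with their own log2 fold change and adjusted p-value, quoted only as theirs. HISAT2 2.1.0, HTSeq, DESeq2 and hg38 are named in the submitters' processing notes, without counting options. Per the file headers, duplicates were removed and the authors' fold changes come with a p-value, a score and a mean normalized signal. The mean was used here only to recover reads, and the score was not used. The main test was limma 3.58.1 (R 4.3.3) in trend mode on log2 of RPKM + 1, for genes averaging 1 RPKM or more, with treatment as the only term, Benjamini-Hochberg adjustment over all 16803 and calls under 0.05. The fitted fold change understates low genes. The fit was tested on simulated reads. Whole reads were recovered with GENCODE 29 exon lengths, for 93.0% of genes within 0.01 reads and for 98.5% when the deposited mean settled the length within 0.05 reads. Genes with fewer than 21 reads in all were not analysed here. Promoters are from RefSeq. Alternatives were other scalings, filters, pseudocounts, the replicate number as a block, no trend, limma-voom, genes without overlap and each library left out. Members and lists were chosen with earlier results of these data known. Genes were named by rule, namely up to 12 of the largest called changes in each direction without overlap of groups, the 4 highest and 4 lowest levels, 12 genes whatever their result, members whose call depends on a setting and up to 4 called genes with the smallest p in each other list. Head-to-head partners, genes sharing exons, cell type markers and the comparison of spans were added with values known. The result of 1 of the listed markers of other cell types is not reported here.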

Additional observations from a re-analysis of the deposited data

How the results depend on the processing

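The 20 lower and 7 higher calls became 21 and 2 with TMM scaling, 15 and 1 with no intensity trend and 25 and 3 with limma-voom. Shares of all tested genes called under the alternatives of this section are not given here. Leaving out 1 library gave 10 to 15 lower and 1 to 4 higher. Median-ratio (19 and 6), upper quartile (18 and 10) and total scaling without mitochondrial DNA genes (20 and 7), no filter (19 and 7), a 5 RPKM filter (22 and 7) and pseudocounts of 0.1 and 5 (20 and 7 each) stayed within 1.5 times. The 33 tested members whose span overlaps no listed gene held 10 lower and 4 higher. The 37 that share no exon base, a set chosen after seeing the data, held 12 lower and 5 higher, with a median log2 fold change of -0.072. That median was negative under each alternative run, at -0.075 with upper quartile scaling, -0.054 with a pseudocount of 5, -0.16 with limma-voom and -0.12 to -0.0805 without 1 library.

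No called member changed sign. MRPS27, not called, turned to -0.019 with TMM scaling and -0.021 with limma-voom and ranged from -0.031 to 0.047 without 1 library, and MRPS18C ranged from -0.030 to 0.11 without 1 library. The cause was not tested. The replicate number as a block gave 12 lower and 1 higher, but the labels do not say if equal numbers mark paired samples. Deviations from the group means over 16803 genes correlated at -0.0852, 0.148 and -0.0829 between same-numbered libraries, and the highest value, 0.221, was between arsenic trioxide replicate 3 and control replicate 1. With 3 libraries per group, whose deviations sum to 0, these values cannot decide if the numbers are pairs. The planned fits of counts with edgeR and DESeq2 were not run, since the deposited values are RPKM. Members had a median of 882 reads, while MRPS24 had as few as 6 reads in a library. The part of depth in the calls was not tested.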
